A study of Mus musculus with 4 samples.

Results

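Interferon response genes were examined in the mouse melanoblast line melb-a through the accessibility of the chromatin assigned to them. The set held 32 genes, among them sensors of foreign nucleic acid, the transcription factors of the pathway, and the antiviral and antigen processing genes that interferon induces. Every row of the peak table whose gene name was one of the 32 was taken, which gave 75 of 70436 peaks, assigned to 29 genes. Oas1a, Ifi44 and Psmb8 had no peak under their names. The assay was ATAC-seq: a transposase cuts open DNA and leaves sequencing adapters there. There were 4 libraries, all of melb-a cells labelled wild type, grown in serum with SCF and Fgf2, infected with a lentivirus that carries a short hairpin RNA and selected with puromycin. The controls carried shLuciferase (control 1) or shScramble (control 2), and the knockdown libraries carried shHIRA I (hairpin I) or shHIRA II (hairpin II), which target Hira. HIRA is the histone chaperone that places the variant H3.3 in chromatin outside replication. The labels mention no interferon, and the study's question here was how the loss of Hira changed accessibility. The table names the knockdown columns as knockouts.

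Interferons are secreted proteins that warn cells of infection. Receptors such as RIG-I, MDA5 and cGAS detect foreign nucleic acid and activate IRF3 and IRF7, which switch on the interferon genes. Type I interferon then acts through JAK kinases to assemble a complex with STAT2 and IRF9 that binds the interferon-stimulated response element (ISRE), while interferon gamma acts at gamma-activated sites (GAS). H3.3 is known to be deposited on interferon-induced genes when they are transcribed in mouse fibroblasts.

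Tags in peaks ranged from 8910983 to 20716859.5 per library and were lowest under hairpin II. The 2 controls agreed within sampling noise, with a chi-square of 0.933 per peak against 6.24 for the 2 Hira libraries, and were therefore summed to 1 sample. Values below are CPM, tags relative to the TMM-corrected library size, and ± is the SD of the 2 Hira libraries (n = 2, against 1 control sample). With 1 library per hairpin, p-values measure only the spread between these libraries. The promoter peak of Hira itself stood at 72.4 and 72.0 CPM in controls 1 and 2 and at 62.6 and 73.1 CPM under hairpins I and II, but a hairpin acts on the transcript, so this peak does not check the knockdown. Of 12 melanoblast markers 9 had a peak within 1 kb of their transcription start site (TSS), and Ednrb, Pmel and Mlana did not. Of 10 markers each, 2 macrophage and dendritic cell markers, 0 lymphocyte markers, 0 keratinocyte markers and 4 fibroblast markers had one.

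The promoter sequences show the letters that the pathway's factors are known to bind. RefSeq promoter windows (mouse genome GRCm38.p6, 250 bases before to 50 after a start) were found for 27 of the 32 genes, in 31 windows. The ISRE core (GAAANN followed by GAAA), on either strand, was present in 12 of the 31 windows (38.7%), against 1131 of 32851 windows of all genes (3.44%). The GAS core TTCNNNGAA, which reads the same on both strands, was present in 7 of the 31 (22.6%), against 2726 of all windows (8.30%). A match describes the letters and does not show that a factor binds. Printed here are the 250 bases before the start, on the sense strand and 5′ to 3′, with the ISRE core in capitals, for genes whose promoter peaks are described below. Rsad2 and Ifit3 had lower peaks under both Hira hairpins, Ifit2 and Gbp2 higher ones, and Isg15 holds 3 overlapping cores. The windows are chr12:26456453-26456702 (minus strand) for Rsad2, chr19:34583279-34583528 (plus) for Ifit3, chr19:34550838-34551087 (plus) for Ifit2, chr3:142620413-142620662 (plus) for Gbp2 and chr4:156200819-156201068 (minus) for Isg15.
Rsad2: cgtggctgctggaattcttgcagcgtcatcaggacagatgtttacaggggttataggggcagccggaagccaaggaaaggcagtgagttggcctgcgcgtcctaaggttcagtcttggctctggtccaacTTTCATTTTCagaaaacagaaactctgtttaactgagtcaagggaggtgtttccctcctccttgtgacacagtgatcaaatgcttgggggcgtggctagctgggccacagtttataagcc
Ifit3: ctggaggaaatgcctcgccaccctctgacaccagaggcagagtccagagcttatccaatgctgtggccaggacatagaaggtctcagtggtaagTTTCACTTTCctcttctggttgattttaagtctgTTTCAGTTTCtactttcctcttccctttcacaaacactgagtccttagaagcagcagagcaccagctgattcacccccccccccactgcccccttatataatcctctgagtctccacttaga
Ifit2: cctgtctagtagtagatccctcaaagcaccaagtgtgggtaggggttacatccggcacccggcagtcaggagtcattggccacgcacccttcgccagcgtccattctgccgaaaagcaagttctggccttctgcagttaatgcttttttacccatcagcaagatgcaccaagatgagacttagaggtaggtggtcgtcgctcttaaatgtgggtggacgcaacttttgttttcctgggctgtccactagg
Gbp2: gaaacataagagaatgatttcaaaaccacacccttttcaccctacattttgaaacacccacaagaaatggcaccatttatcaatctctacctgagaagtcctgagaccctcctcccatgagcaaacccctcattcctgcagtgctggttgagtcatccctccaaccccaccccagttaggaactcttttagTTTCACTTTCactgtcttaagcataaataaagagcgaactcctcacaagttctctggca
Isg15: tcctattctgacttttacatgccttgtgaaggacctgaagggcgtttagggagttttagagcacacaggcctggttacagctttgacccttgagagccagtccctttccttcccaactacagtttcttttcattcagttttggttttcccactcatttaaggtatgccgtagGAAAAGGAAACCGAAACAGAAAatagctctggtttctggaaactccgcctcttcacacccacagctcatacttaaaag

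Where a gene of the set had a peak within 1 kb of its TSS, it stayed within 1.5-fold of the control in 20 of 23 genes. So did 11248 of all 12115 tested peaks within 1 kb of a TSS. In the summed controls these 23 peaks ranged from 3.91 CPM (Oasl2) to 79.2 CPM (Mx2). The RefSeq promoter windows of Irf7, Oas1a, Oasl1, Oasl2, Ifi44 and Psmb8 held no peak. The 23 genes with a peak within 1 kb of the TSS had a median log2 fold change of −0.08 (range −0.90 to 0.61), against −0.01 over all 12115 tested peaks within 1 kb. None of the 23 lay at least 2-fold from the control under both hairpins, against a background of 1.17% higher and 0.454% lower. Both Hira libraries lay below both controls at 11 of the 23 and above both at 3, where the background within 1 kb was 28.6% below and 29.1% above. The 11 were the promoters of Ifit3, Mx1, Rsad2, Mx2, Parp14, Stat2, Irf9, Isg15, Usp18, Gbp3 and Tap1, and the 3 were those of Gbp2, Ifit2 and Ddx58. In edgeR's quasi-likelihood test over 70432 peaks none of these 23 peaks, and no other peak of the table (0.00% called), passed an adjusted p under 0.05. At an unadjusted p under 0.05 there were 15569 peaks in all (22.1%), and 13 of the 75 peaks of the set (17.3%), and the smallest adjusted p was 0.0704. edgeR's newer quasi-likelihood estimate, run on the same samples, called 9919 peaks (14.1%), 5940 higher and 3979 lower, and 7 of the 75, 3 higher and 4 lower. What follows therefore describes levels, not calls. Under the scaling recovered from the authors' deposited table the median over all peaks was −0.26 in place of 0.00; Gbp2 then had 0.33, Ifit2 0.08 and Ddx58 turned to −0.14, below 0 but above that median. In a bulk library, fewer cells with an open site and less opening per cell cannot be told apart.

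**Figure D1:**
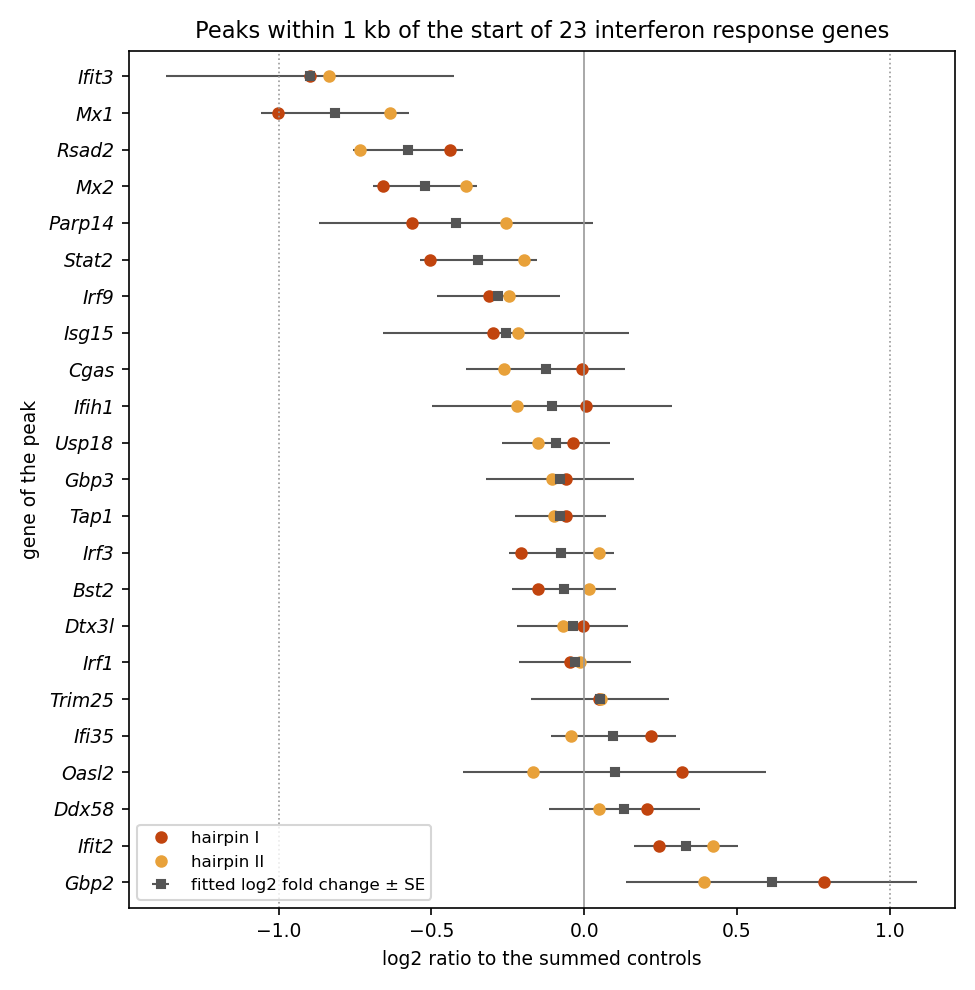
Log2 ratio to the summed controls of the peak nearest the TSS for the 23 genes with a peak within 1 kb, with hairpin I and hairpin II as dots and the fitted log2 fold change with its standard error as a square with a bar. Dotted lines mark a 2-fold difference; Ifit3 is lowest at −0.90 and Gbp2 highest at 0.61.

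The transcription factors that carry the interferon signal had slightly lower promoter peaks for Stat2 and Irf9 and near equal ones for Irf1 and Irf3. Stat2, a partner in the ISRE-binding complex, had 50.2 and 48.4 CPM in controls 1 and 2 and 34.8 and 43.1 CPM under hairpins I and II at its promoter peak (chr10:128270201-128270930). Both Hira libraries were below both controls (log2 fold change −0.35, SE 0.19, edgeR adjusted p = 0.346). Irf9, which gives that complex its DNA-binding specificity, had 34.6 CPM in each control and 27.9 and 29.1 CPM under hairpins I and II (chr14:55603717-55604556; log2 fold change −0.28, SE 0.20, edgeR adjusted p = 0.496). These groups also did not overlap. The promoter peak of Irf3, the factor activated by the sensors, had 59.8 and 61.3 CPM in the controls and 52.3 and 62.5 CPM under hairpins I and II, so the groups overlapped. This peak is annotated as the promoter of Bcl2l12 and also holds the RefSeq window of Irf3, so its level is not that of Irf3 alone. Irf1, an activator downstream of interferon gamma, had 37.6 and 36.2 CPM in the controls and 35.9 and 36.7 CPM under the hairpins at its promoter, a log2 fold change of −0.03. Irf2, an antagonist of Irf1, had no peak of its own name within 1 kb; its RefSeq promoter window lay in a peak assigned to the neighbouring Gm16675, with 39.7 CPM in the summed controls and 40.2 ± 3.54 CPM under the Hira hairpins. Irf7, the inducible amplifier of the response, had 1 peak, in exon 4 of 10 and 1.15 kb from the TSS (chr7:141265024-141265516). It was weak, with 1.79 and 1.13 CPM in the controls (37.5 and 18 tags) and 3.62 and 3.24 CPM under the hairpins. Both hairpins were more than 2-fold above the summed controls (log2 fold change 1.18, SE 0.50, edgeR adjusted p = 0.216).

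Irf1 and Irf2 had larger differences at peaks inside and beyond their gene bodies, in both directions within the same locus. Irf2 had 5 peaks, all in its introns. A peak in intron 1, 8.30 kb from the TSS (chr8:46747785-46748300), had 4.94 and 5.41 CPM in the controls and 0.914 and 1.82 CPM under hairpins I and II. The difference was a log2 fold change of −1.94 (SE 0.53, edgeR adjusted p = 0.0865; 0.0293 with the newer estimate). Further along the same intron, 41.5 kb from the TSS (chr8:46780731-46781703), accessibility went the other way, from 1.41 CPM in each control to 10.7 and 4.89 CPM under hairpins I and II. That was the highest log2 fold change of the 75 peaks, at 2.48 (SE 0.63, edgeR adjusted p = 0.077; 0.0273 with the newer estimate). Another intron 1 peak, in an L2 repeat 3.33 kb from the TSS, had 7.66 and 8.48 CPM in the controls and 1.69 and 5.46 CPM under the hairpins, so it was much lower under hairpin I than under hairpin II. The strongest Irf2 peak, at a CpG island 1.43 kb from the TSS, differed little (42.4 and 43.7 CPM in the controls, 47.2 and 49.0 under the hairpins).

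Of the 5 peaks assigned to Irf1, 4 lay in or at the end of the noncoding gene Gm12216 next to it. One of these, 32.9 kb from the Irf1 TSS (chr11:53803100-53803692), had 1.72 and 1.66 CPM in the controls and 10.6 and 4.04 CPM under hairpins I and II. Its log2 fold change was 2.15 (SE 0.67, edgeR adjusted p = 0.108; 0.038 with the newer estimate). A lower one, 15.1 kb from the Irf1 TSS, had 3.18 and 3.79 CPM in the controls and 1.59 and 2.28 CPM under the hairpins (log2 fold change −0.84, SE 0.49, edgeR adjusted p = 0.378). A broad, strong peak 25.5 kb from the Irf1 TSS had 73.9 and 76.6 CPM in the controls and 98.4 and 94.8 CPM under the hairpins (log2 fold change 0.36, SE 0.15, edgeR adjusted p = 0.195). Among the 14 peaks of the 6 transcription factor genes, 3 were at least 2-fold higher under both hairpins and 1 at least 2-fold lower, where the background over all tested peaks was 8.29% and 5.84%; these 4 lay beyond 1 kb of the TSS, where it was 9.77% and 6.96%.

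**Figure D2:**
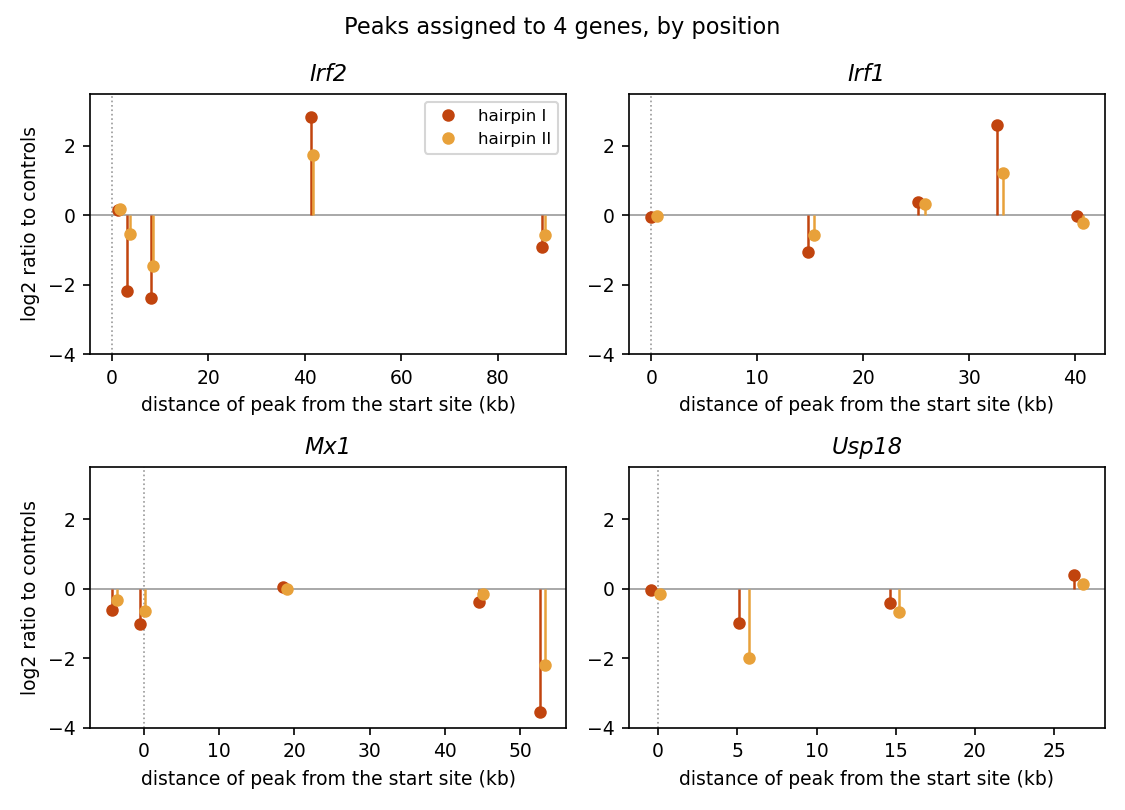
Log2 ratio to the summed controls under each hairpin for the peaks assigned to Irf2, Irf1, Mx1 and Usp18, by distance of the peak from the TSS in kb (positive is downstream; the hairpins are drawn side by side, slightly apart). Irf2 and Irf1 each hold a peak more than 2-fold higher under both hairpins, and the lowest Mx1 peak is 52.9 kb away.

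The antiviral effectors included the lowest promoter ratios of the set. Mx1 and Mx2 encode GTPases that block viruses, although many laboratory mouse strains carry defective Mx genes. The Mx1 promoter peak (chr16:97462546-97463469) had 36.2 and 34.5 CPM in controls 1 and 2 and 17.7 and 22.8 CPM under hairpins I and II. Both Hira libraries were well below both controls (log2 fold change −0.82, SE 0.24, edgeR adjusted p = 0.0992; 0.0439 with the newer estimate), and 1.19% of all tested peaks within 1 kb had a lower fold change. The Mx2 promoter peak (chr16:97534701-97536446) had 80.0 and 78.2 CPM in the controls and 50.2 and 60.6 CPM under the hairpins (log2 fold change −0.52, SE 0.17, edgeR adjusted p = 0.12). An intergenic peak 13.9 kb before Mx2 (chr16:97521656-97522634) had 39.3 and 38.1 CPM in the controls and 12.2 and 20.9 CPM under the hairpins. Its log2 fold change was −1.24 (SE 0.31, edgeR adjusted p = 0.0765; 0.0284 with the newer estimate). The lowest ratio of all 75 peaks was assigned to Mx1 by distance but lay in intron 3 of 8 of Bace2, a protease gene, 52.9 kb from the Mx1 TSS (chr16:97409716-97410249). It had 26.9 and 26.8 CPM in the controls and 2.23 and 5.75 CPM under hairpins I and II, a log2 fold change of −2.81 (SE 0.49, edgeR adjusted p = 0.0704; 0.0251 with the newer estimate). Over the 160 kb that hold the 9 Mx peaks, 6 had both Hira libraries below both controls and 1 had both above, where 34.2% and 34.5% of all tested peaks did.

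**Figure D3:**
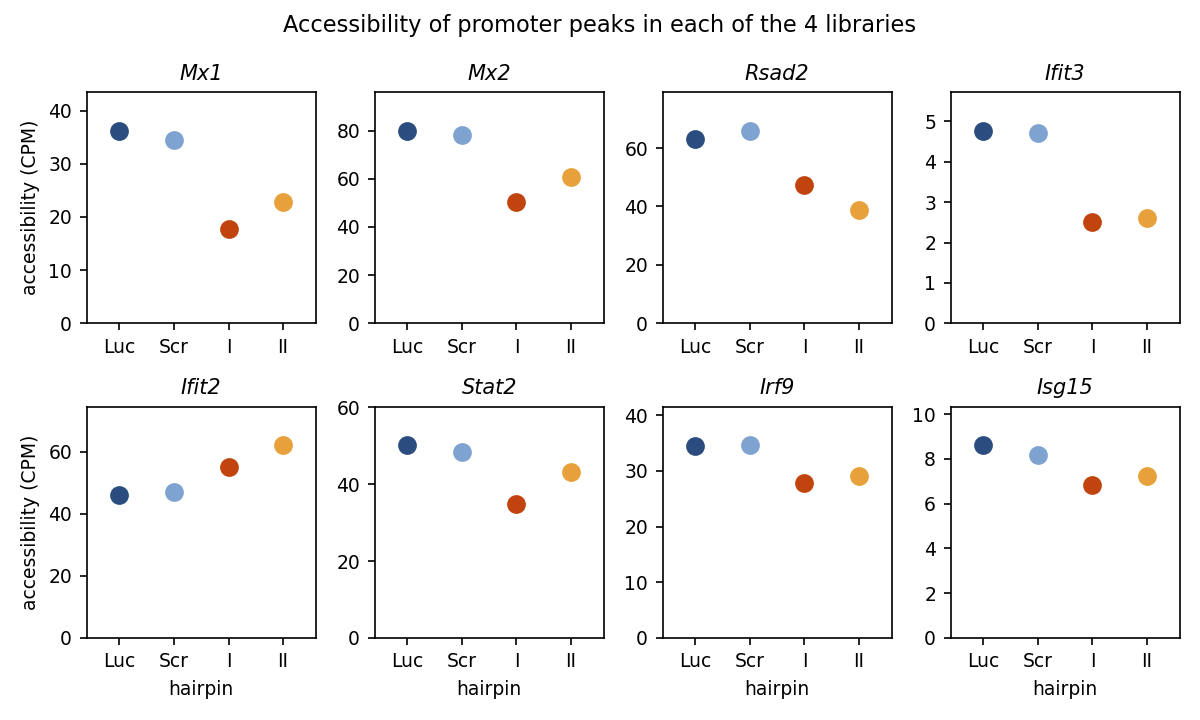
Accessibility in CPM of the promoter peak of 8 genes in each of the 4 libraries (Luc and Scr are the control hairpins, I and II the Hira hairpins), each on a linear axis from 0. Both Hira libraries lie below both controls for Mx1, Mx2, Rsad2, Ifit3, Stat2, Irf9 and Isg15, and above both for Ifit2.

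Rsad2 encodes viperin, an enzyme that makes an antiviral nucleotide. Its TSS peak, annotated as exon 1 (chr12:26455909-26456737), contains the ISRE core printed above and had 63.1 and 66.0 CPM in the controls and 47.4 and 38.6 CPM under hairpins I and II. The Hira libraries were lower without overlap (log2 fold change −0.58, SE 0.18, edgeR adjusted p = 0.111), with hairpin II the lower of the pair. A small peak 3.88 kb before the gene went the other way, from 4.85 and 4.16 CPM to 8.46 and 8.02 CPM (log2 fold change 0.85, SE 0.43, edgeR adjusted p = 0.302). For per-length comparison, the Rsad2 peak was the most accessible of the 23 peaks nearest a TSS in the summed controls, at 77.7 CPM per kb of peak, and the Oasl2 peak in its 5′ UTR the least, at 5.18.

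The Ifit genes, whose products bind viral RNA, lie next to each other on chromosome 19. Of their 9 peaks, 3 had both Hira libraries below both controls and 3 above both, where 34.2% and 34.5% of all tested peaks did. The promoter peaks of Ifit3 and Ifit2 differed in opposite directions. At Ifit3 the promoter peak (chr19:34582956-34583583) had 4.78 and 4.73 CPM in the controls and 2.51 and 2.62 CPM under the hairpins. This was the lowest fold change among the promoters (log2 −0.90, SE 0.47, edgeR adjusted p = 0.32), on 23 to 100 tags per library. A peak 6.21 kb before Ifit3, at the end of Ifit2, was also lower, with 10.8 and 10.1 CPM against 6.70 and 5.63 CPM. At Ifit2 the promoter peak (chr19:34550428-34551389) had 46.0 and 47.0 CPM in the controls and 55.0 and 62.1 CPM under the hairpins, above both controls (log2 fold change 0.33, SE 0.17, edgeR adjusted p = 0.303). An Ifit2 intron peak 1.07 kb from the TSS had 30.9 and 29.6 CPM against 36.0 and 43.3 CPM. No peak named Ifit1 lay within 1 kb of its TSS. The Ifit1 promoter window fell in a peak assigned to its neighbour Ifit1bl2, with 12.1 CPM in the summed controls and 8.28 ± 0.363 CPM under the Hira hairpins (edgeR log2 fold change −0.56, SE 0.36, adjusted p = 0.446). Ifit, Mx, Oas and Gbp genes have close copies, so their values are uncertain: how reads that map to several copies were counted is not known here.

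The TSS peaks of the other effectors differed less. Bst2, which encodes tetherin, had 50.0 and 50.4 CPM in the controls and 45.2 and 50.8 CPM under the hairpins at its promoter. Ifi35, whose product regulates the sensors, had 33.8 and 32.6 CPM against 38.8 and 32.3 CPM. The groups overlapped at both of these TSS peaks. An Ifi35 intron 1 peak 6.42 kb from the TSS was lower, with 28.6 and 25.9 CPM against 19.1 and 25.2 CPM (log2 fold change −0.31, SE 0.26, edgeR adjusted p = 0.577). No Ifi35 peak had both Hira libraries above both controls. Oasl1 and Oasl2 belong to the family of oligoadenylate synthetases and related proteins; their promoter windows held no peak. The Oasl2 peak 0.563 kb downstream of its TSS had 4.35 and 3.35 CPM in the controls and 4.91 and 3.47 CPM under the hairpins. A peak 9.42 kb before Oasl1 had 5.35 and 3.91 CPM against 10.3 and 7.74 CPM, higher under both hairpins (log2 fold change 0.94, SE 0.44, edgeR adjusted p = 0.258). Of the 31 effector peaks, 0 were at least 2-fold higher under both hairpins and 1, the one in Bace2, at least 2-fold lower. The background over all tested peaks was 8.29% higher and 5.84% lower.

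Isg15, a ubiquitin-like protein joined to other proteins during the response, had a narrow promoter peak (chr4:156200756-156200992) with 8.62 and 8.17 CPM in the controls and 6.84 and 7.23 CPM under the hairpins. The Hira libraries were slightly lower without overlap (log2 fold change −0.26, SE 0.40, edgeR adjusted p = 0.816). Usp18, which removes ISG15 and dampens receptor signalling, had 42.8 CPM in each control and 41.7 and 38.5 CPM under the hairpins at its promoter. Its intron 1 peak, 5.42 kb from the TSS (chr6:121251196-121251460), had 3.10 and 1.85 CPM in the controls and 1.25 and 0.569 CPM under hairpins I and II. That rested on few tags (65 and 29.5 in the controls, 18.5 and 5 under the hairpins), and the log2 fold change was −1.43 (SE 0.54, edgeR adjusted p = 0.167). A stronger intergenic peak 26.5 kb downstream of the Usp18 TSS went the other way. It had 37.7 and 37.3 CPM in the controls and 49.4 and 41.4 CPM under hairpins I and II (log2 fold change 0.28, SE 0.19, edgeR adjusted p = 0.464). Of the 4 Usp18 peaks, 3 had both Hira libraries below both controls and 1 above both. Over all tested peaks the shares were 34.2% and 34.5%.

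The sensors differed little at their TSS peaks. Ddx58, encoding RIG-I, had 21.7 and 20.7 CPM in the controls and 24.5 and 22.0 CPM under the hairpins at its TSS peak. Ifih1, encoding MDA5, had 9.19 and 8.36 CPM against 8.87 and 7.57 CPM. Cgas, the DNA sensor, had 22.2 and 22.6 CPM against 22.2 and 18.6 CPM. For Trim25, the ubiquitin ligase linked to RIG-I, the TSS peak had 25.8 and 23.1 CPM against 25.5 and 25.6 CPM. Of these genes only Ddx58 had both Hira libraries above both controls at the TSS, and its log2 fold change was 0.13 (SE 0.25). An intergenic peak 24.8 kb downstream of the Trim25 TSS (chr11:89023579-89024865) stood apart, with 21.9 and 21.3 CPM in the controls and 36.7 and 33.8 CPM under the hairpins. Its log2 fold change was 0.71 (SE 0.21, edgeR adjusted p = 0.0994; 0.0495 with the newer estimate). None of the 10 peaks of the 4 sensor genes was 2-fold from the control under both hairpins. By that rule 8.29% of all tested peaks were higher and 5.84% lower, so few were to be found among 10 peaks.

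Guanylate-binding proteins are GTPases that attack membranes around pathogens. The Gbp2 promoter peak (chr3:142620251-142620935) was weak and higher under both hairpins, with 4.20 and 3.76 CPM in the controls and 6.97 and 5.29 CPM under hairpins I and II (log2 fold change 0.61, SE 0.48, edgeR adjusted p = 0.545). A peak 2.74 kb before it, in the last intron of the neighbouring Gbp2b, was lower, with 13.9 and 16.2 CPM against 4.20 and 9.39 CPM (log2 fold change −1.16, SE 0.48, edgeR adjusted p = 0.202). Gbp3 had 23.5 and 22.2 CPM in the controls and 22.0 and 21.3 CPM under the hairpins at its promoter. Tap1, the peptide transporter of antigen presentation, shares its promoter with the immunoproteasome subunit gene Psmb9: the RefSeq windows of both lay in the Tap1 peak. That peak had 76.5 and 73.7 CPM in the controls and 72.2 and 70.3 CPM under the hairpins (log2 fold change −0.08, SE 0.15). Psmb9 itself was assigned 1 distal peak, with 4.42 and 4.41 CPM in the controls and 4.77 and 5.52 CPM under the hairpins.

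Parp9 and Dtx3l encode partners in an ADP-ribosylation complex, and Parp14 a related enzyme. The Dtx3l promoter peak also covers, at its edge, the annotated TSS of Parp9. This peak had 40.3 and 36.2 CPM in the controls and 38.4 and 36.7 CPM under the hairpins. The Parp14 TSS peak had 5.87 and 7.57 CPM against 4.43 and 5.52 CPM. An intron 1 peak of Parp14, 1.99 kb from the TSS (chr16:35868997-35869781), had 21.8 and 19.7 CPM in the controls and 13.8 and 14.6 CPM under the hairpins. It was lower under both (log2 fold change −0.56, SE 0.28, edgeR adjusted p = 0.301). None of the 9 peaks of these 3 genes was 2-fold from the control under both hairpins, where 8.29% of all tested peaks were higher and 5.84% lower.

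Over all 75 peaks, 3 were at least 2-fold higher under both hairpins (4.00%) and 2 at least 2-fold lower (2.67%), against 8.29% and 5.84% of all tested peaks. All 5 lay beyond 1 kb of a TSS, where 52 of the 75 peaks were and where the background was 9.77% higher and 6.96% lower. The median log2 fold change of the 75 peaks was −0.06, against 0.00 for all tested peaks. Both Hira libraries lay below both controls at 32 of the 75 and above both at 17, with a background of 34.2% and 34.5%. By annotation 15 of the 75 were promoter peaks (20%, against 10.8% of all tested peaks). Of the 75, 42 lay in or at a transcript of the gene they were named for, 19 in none, 2 at another gene of the set and 12 at a gene outside it, of which 4 in Gm12216, 2 in Bace2 and 2 in Gbp2b. The authors' deposited table calls 2 of the 75 peaks higher and 8 lower, against 8.48% and 11.8% of all peaks.

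The ratios under both hairpins share the summed controls. Hairpin I was further from the controls than hairpin II at 46. At 7 peaks only hairpin I was 2-fold from the controls, and at 2 only hairpin II. The same counts over all tested peaks are not given here, so these do not single out the set. The SD of the log2 ratios over the 75 peaks was 0.90 under hairpin I and 0.61 under hairpin II, against 1.05 and 0.78 over all tested peaks. A wider spread under hairpin I was thus also present over all tested peaks.

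**Figure D4:**
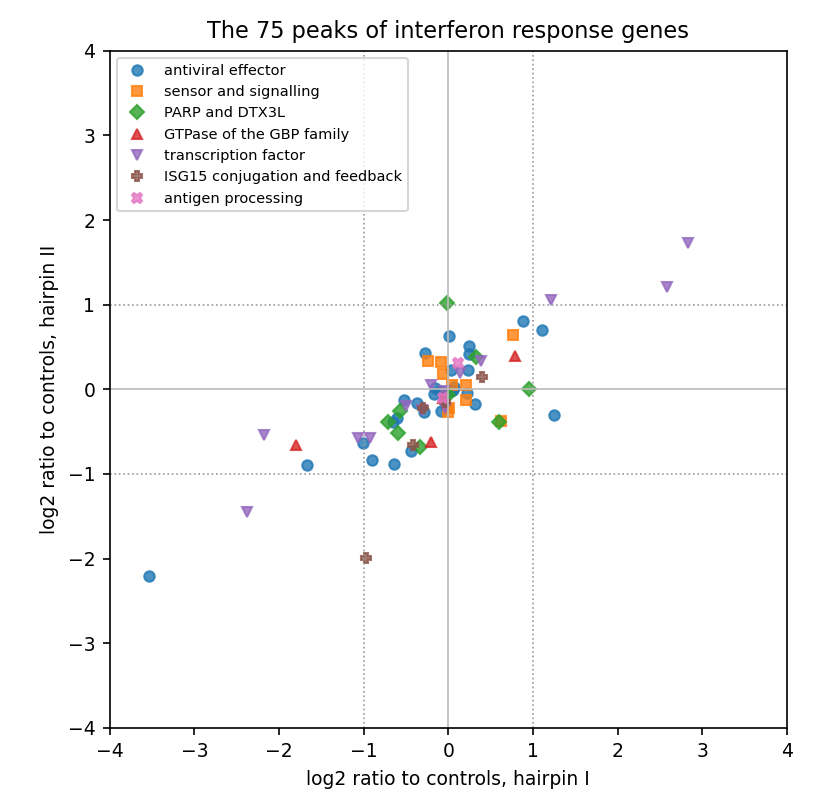
Log2 ratio to the summed controls under hairpin I (x axis) and hairpin II (y axis) for the 75 peaks, marked by the role of their gene, with dotted lines at 2-fold. Both axes share the same controls; 3 peaks lie beyond 2-fold in the upper right corner and 2 in the lower left.

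The promoter peaks of the set were also read by whether the ISRE core was present. Among the 23, 18 overlapped a RefSeq promoter window. The Oasl2 peak lay outside its window. No window was found for Mx1, Mx2, Usp18 and Parp14, so whether they hold the core is not known here. These are left out of the split, with log2 fold changes of −0.82, −0.52, −0.09 and −0.42 and both Hira libraries below both controls at each. The 9 with the core had a median log2 fold change of −0.10, and 5 of them had both Hira libraries below both controls and 2 above both. The 9 without it had a median of −0.04, with 2 below and 1 above. Over peaks of all other genes within 1 kb, 286 with the core had a median of −0.02 and 8471 without it also −0.02. Both Hira libraries were below both controls at 32.2% of the former and 29.3% of the latter, and above both at 28.3% and 27.1%.

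The wider pathway was read from 6 lists of 155 further gene symbols, of which 134 had 469 tested peaks. Of these peaks 25 were at least 2-fold higher under both hairpins (5.33%) and 18 lower (3.84%), against the background of 8.29% and 5.84%. The newer estimate called 39 higher and 16 lower, with a background of 8.43% and 5.65%. Interferon ligands and receptors had 1 higher and 1 lower of 47 peaks by the 2-fold rule (2.13% each). The promoter peak of Ifngr2, a subunit of the interferon gamma receptor, had 2.24 and 1.35 CPM in the controls and 7.79 and 5.58 CPM under the hairpins (log2 fold change 1.86, SE 0.53, edgeR adjusted p = 0.0903). An intergenic peak 7.91 kb from Ifnb1, which encodes interferon beta, had 4.08 and 3.79 CPM against 25.3 and 7.80 CPM. An intron peak of Il10rb, a receptor subunit for interferon lambda, was lower, with 25.6 and 26.8 CPM against 6.77 and 13.2 CPM.

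Among the genes listed as feedback inhibitors, Isg20 included, 12 of 86 peaks were 2-fold higher under both hairpins (14.0%) and 1 lower (1.16%). The background was 8.29% and 5.84% of all tested peaks. These 86 peaks came from 13 genes, so 1 gene could count with several peaks. Tnfaip3, which encodes the deubiquitinase A20, an inhibitor of NF-κB signalling as well, had an intron peak with 8.12 and 8.42 CPM in the controls and 39.8 and 33.0 CPM under the hairpins. Its log2 fold change was 2.15 (SE 0.26, edgeR adjusted p = 0.0704). The list of JAK, STAT and further IRF genes also held Irf2bp1, Irf2bp2, Irf2bpl, Crebbp and Ep300. It had 7 higher and 7 lower of 118 peaks (5.93% each). In it an intergenic peak 171 kb from Irf8 had 11.0 and 10.8 CPM against 46.2 and 28.6 CPM, and an intron peak of Irf4 had 17.5 and 19.2 CPM against 5.76 and 7.17 CPM. Nucleic acid sensing genes had 1 higher (1.82%) and 2 lower (3.64%) of 55, and antigen presentation genes 1 higher (3.85%) and 0 lower of 26. The 137 peaks of other interferon-induced genes had 3 higher (2.19%) and 7 lower (5.11%). One near the chemokine gene Cxcl10, in an intron of Art3, had 28.3 and 26.0 CPM in the controls and 54.4 and 50.3 CPM under the hairpins (log2 fold change 0.94, SE 0.18, edgeR adjusted p = 0.0704). One 19.4 kb from Cmpk2, the neighbour of Rsad2, had 65.4 and 68.7 CPM against 28.7 and 39.8 CPM (log2 fold change −0.97, SE 0.21, edgeR adjusted p = 0.0704).

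Summed over the markers with a TSS peak, the levels of the cell type lists also differed between the groups. For the 9 melanoblast markers the sum was 338 and 324 CPM in controls 1 and 2 and 291 and 300 CPM under hairpins I and II, the lower level being that of the Hira libraries. For the 4 fibroblast markers it was 80.7 and 76.5 CPM in the controls and 104 and 94.8 CPM under hairpins I and II, with Col1a1, Col1a2, Col3a1, Lum, Thy1 and Pdgfrb without such a peak. For the 2 macrophage and dendritic cell markers it was 13.1 and 14.1 CPM against 17.5 and 16.2 CPM, with Ptprc, Csf1r and Spi1 among the 8 without a TSS peak. Their part in the results above was not tested.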

How the data were processed

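ATAC-seq libraries were 1 per hairpin. Per the submitters' processing notes, the tools were MACS2 2.2.9.1, cutadapt 2.3, edgeR 3.38.4, Picard and Bowtie2, with genome build mm10; the role and settings of each, and the treatment of multi-mapping reads or of the transposase offset, are not given in the sources used here. The deposited table holds, per the file headers, estimated counts (tags, all multiples of 0.5) for 1 set of peaks, with the authors' log2 fold change, mean log2 CPM, a likelihood ratio score, and p-values. It annotates each peak with its nearest gene.

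Tags were rounded to whole numbers, filtered with filterByExpr, normalized by TMM and tested with the quasi-likelihood test of edgeR 4.0.16 in R 4.3.3 over 70432 peaks, with Benjamini-Hochberg adjustment at 0.05. The control libraries were counted as 1 sample, which left 1 residual degree of freedom. The SE of a log2 fold change is its size over the square root of F. Ratios under each hairpin used a prior of 2 tags. On simulated data for the Hira against control comparison (70349 peaks) the test recovered 46 of 100 peaks changed by log2 2 and 4 of 100 changed by log2 1. It also made 5 false calls. The simulation gave all peaks and samples, the summed control included, the same spread, and changed only peaks with more than 100 tags. In the data the coefficient of variation was 0.00988 between the controls and 0.236 between the Hira libraries. The recovered counts therefore do not give the power of the test on these data. Motifs were searched in RefSeq windows. Alternatives were other normalizations, filters, tests (DESeq2 1.42.0, limma 3.58.1), thresholds and each library left out. Peaks named in the text were the peak nearest the TSS for each gene within 1 kb, the 10 higher and 10 lower peaks of largest mean ratio, among those above the median abundance whose Hira libraries both lay outside the range of the controls, and, in the other pathway lists, those with the lowest p-values in each direction; outside that rule, the distal peaks of Irf7, Usp18 and Psmb9, the Irf2 peaks 3.33, 8.30 and 41.5 kb and the Irf1 peaks 15.1 and 32.9 kb from the TSS, and the peaks of Gm16675 and Ifit1bl2, were chosen after their values were seen. The genes and lists were chosen with earlier results of these data known, and the split of promoters by ISRE core was added after seeing the data.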

Additional observations from a re-analysis of the deposited data

How the results depend on the processing

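The count of called peaks depended on the test and on whether the controls count as 1 sample. Against 0 in all, DESeq2 called 2331, the authors' scaling 8976, the newer quasi-likelihood estimate 9919, the likelihood ratio test 8558, limma-voom 5928 and a threshold of 0.1 gave 6651. Under the authors' scaling the same quasi-likelihood test estimated an infinite prior degree of freedom, so that all peaks shared 1 spread, against 7.31 in the fit reported. Of the 75 peaks of the interferon response genes these called 2, 8, 7, 5, 7 and 6. Controls as 2 samples gave 17840 in all and 17 of the 75. The labels give the controls no number; pairing by column number, as a replicate block, gave 18946 and 17, and the pairing has no basis in the labels. Total tags, no filter and leaving out either control gave 0 in all and 0 of the 75. With either Hira library left out there is 1 sample against 1, so those are values with no test.

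Peaks at least 2-fold higher under both hairpins numbered 3, and 6 at 1.5-fold, 1 within 10 kb of the TSS, 0 among promoter annotations and 1 with a single peak per gene. They numbered 3 without control 1 and 2 without control 2. With a Hira library left out, the count is over the other hairpin: 4 under hairpin II and 5 under hairpin I. Peaks at least 2-fold lower under both hairpins numbered 2, and 5 under the authors' scaling, 8 at 1.5-fold, 1 within 10 kb, 0 among promoter annotations and 0 with a single peak per gene. They numbered 2 without control 1 and 3 without control 2. Over the hairpin that remained with a Hira library left out, there were 3 under hairpin II and 7 under hairpin I. The shares over all tested peaks under these alternatives are not given here, so these counts do not single out the set. The median of the 75 less that of all peaks was −0.07 and lay between −0.10 and −0.05 under the alternatives of the fit.

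Among 37 named peaks, 8 TSS peaks with small differences changed sign when a library was left out, 7 of them also relative to the median of all peaks. Without hairpin I, Irf3 went to 0.0515 (range over the libraries left out −0.21 to 0.05), Bst2 to 0.0171 (−0.15 to 0.02), Ifi35 to −0.0436 (−0.04 to 0.22) and Oasl2 to −0.192 (−0.19 to 0.32). Without hairpin II, Ifih1 went to 0.00639 (−0.23 to 0.0064). Without control 1, Dtx3l went to 0.0530 (−0.10 to 0.05) and Irf1, the one that did not change side of that median, to 0.00393. Without control 2, Trim25 went to −0.0136 (−0.01 to 0.14) and Oasl2 to −0.0544. The cause was not tested. Under the authors' scaling, where the median of all peaks was −0.26, values above 0 went below 0 but stayed above that median for Ifi35 (−0.18), Ddx58 (−0.14), Trim25 (−0.21), Oasl2 (−0.19), the Ifit1 peak (−0.03) and the Irf2 peak at 1.43 kb (−0.10). Depth was lowest under hairpin II, where the 75 peaks had a median of 60 tags and a minimum of 5; counting error there limits what weak peaks can show.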
